A study of Mus musculus with 8 samples.

Results

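The genes described here are the CXC chemokines of one cluster on mouse chromosome 5: Cxcl1, Cxcl2, Cxcl3, Cxcl5, Ppbp and Pf4. They were chosen by symbol and by position, with no expression value in the rule, and are 6 of the 55414 genes in the deposited count table. All 6 passed the filter on low counts and were among the 15371 genes tested. RNA was sequenced in bulk from wound-bed skin cells of mice that had been digested with collagenases, strained at 70 µm and captured with magnetic beads against F4/80, a macrophage surface protein encoded by Adgre1. The groups were 5 libraries (a to e) from wounds 3 days after injury and 3 libraries (a to c) from wounds 1 day after injury, each library being a pool of 6 wounds from 3 mice. The protocol speaks of 6 samples at each time, and 8 libraries were analysed here. No genetic change or drug is given for either group, and strain, sex and age are not given in the sources used here. Whether a mouse contributed to more than 1 pool is not stated, so p-values speak only of how much pools differed. The comparison of the days bears on neutrophil recruitment in wounds, which the series title names.

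Chemokines of this cluster are small secreted proteins that guide leukocytes along gradients. Cxcl1, Cxcl2, Cxcl3, Cxcl5 and the processed product of Ppbp carry a glutamate-leucine-arginine motif before the paired cysteines and act through the receptor Cxcr2, which draws neutrophils out of the blood into injured skin. Pf4, platelet factor 4, lacks that motif, is stored in platelet granules and is also made by macrophages, and is not a classical Cxcr2 ligand, so the heading "neutrophil-recruiting" fits it less well than the other members. Transcription of Cxcl1, Cxcl2 and Cxcl3 is known to be switched on by NF-κB downstream of IL-1, TNF and Toll-like receptors, and their messenger RNAs are short-lived.

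The cluster spans 146579 bases in GRCm39, chr5:90907219-91053797, with all members on the plus strand. The order along the chromosome was Cxcl5, Ppbp, Pf4, Cxcl3, Cxcl1 and Cxcl2. Ppbp and Pf4 lay 2371 bases apart, and Cxcl1 and Cxcl2 lay 10755 bases apart with 1 annotated gene between them. The longest gap, 101640 bases with 4 annotated genes, separated Cxcl3 from Cxcl1. No other annotated gene overlapped the span of a member.

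The stretch just upstream of each start is shown because 3 of the members share a recognisable element there, while Ppbp and Pf4 do not hold it. Sequences are the 120 bases before the start on the plus strand, from RefSeq in GRCm38.p6, a different build from that of the count table. Capitals mark matches to the κB motif GGGNNNTTCC on either strand and to TATAAA.
Cxcl1, chr5:90891125-90891244: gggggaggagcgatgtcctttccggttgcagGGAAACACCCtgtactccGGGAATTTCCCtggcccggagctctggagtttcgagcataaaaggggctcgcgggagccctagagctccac
Cxcl2, chr5:90903779-90903898: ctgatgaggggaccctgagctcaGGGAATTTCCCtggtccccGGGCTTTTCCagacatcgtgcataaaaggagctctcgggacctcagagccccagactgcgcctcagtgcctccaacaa
Cxcl3, chr5:90785981-90786100: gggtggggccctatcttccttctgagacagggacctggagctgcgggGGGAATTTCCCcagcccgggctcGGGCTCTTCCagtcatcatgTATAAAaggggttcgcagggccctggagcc
Ppbp, chr5:90768398-90768517: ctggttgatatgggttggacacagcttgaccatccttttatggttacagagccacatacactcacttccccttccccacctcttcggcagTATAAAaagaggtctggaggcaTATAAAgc
Pf4, chr5:90772315-90772434: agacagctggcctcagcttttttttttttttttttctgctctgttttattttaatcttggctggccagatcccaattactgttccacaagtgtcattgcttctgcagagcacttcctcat
Of the 6 members, 5 had an entry in the promoter table, and Cxcl5 is named only. The search covered 300 bases (250 before the start and 50 after it) on both strands. A κB match was found in Cxcl1, Cxcl2 and Cxcl3, and in 5.56% of all 32851 promoters. The letters GGGAATTTCC occurred in all 3, beginning 71, 97 and 73 bases before the start of Cxcl1, Cxcl2 and Cxcl3, and overlapped a minus-strand match 1 base nearer the start in each. Further matches were GGGTGTTTCC on the minus strand of Cxcl1, GGGCTTTTCC in Cxcl2 and GGGCTCTTCC in Cxcl3. TATAAA was found in Cxcl3 and Ppbp and in 13.6% of all promoters, and the AP-1 motif TGANTCA in Ppbp alone of the 5, as TGAATCA 204 bases before the start, and in 7.81% of all promoters. Pf4 held none of the 3 motifs in this window. A match of letters is a description and shows no binding.

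The libraries held 41566151 to 60289310 counts each, and a count of 3, used as the floor of detection, equals 0.0498 to 0.0722 CPM by library total. Genes with a count numbered 14952 to 20557 in day 3 libraries, where all but day 3 a were at or under 15359, and 23928 to 27315 in day 1 libraries, and the part of this difference in the members' values was not tested. Levels are normalised CPM, counts scaled to the library total with TMM factors. The lowest count of any member in any library was 1038, for Cxcl5 in day 1 b, so counting error was small beside the spread between pools. All 11 macrophage markers were above the floor in every library, and Adgre1 itself was at 994 to 1181 CPM in the day 3 libraries and at 689 to 940 CPM in the day 1 libraries. Library day 3 b stood apart within its group in neutrophil marker level, and results that rest on it are given with and without it. In bulk samples, fewer cells of a type and less RNA per cell cannot be told apart.

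Across all genes, the edgeR quasi-likelihood test with Benjamini-Hochberg adjustment called 2 genes of 15371 (0.013%) at 0.05, and none of the 6 members. At an unadjusted p under 0.05 it counted 2 of the 6 members, Ppbp and Cxcl3, both lower at day 3, against 15.7% of all genes tested (10.5% lower and 5.16% higher). The day ranges did not overlap for 1 of the 6 members, Ppbp, against 14.1% of all genes in either direction and 8.76% in the direction of lower day 3 values. Without day 3 b edgeR called 2 members, Ppbp and Cxcl3, and 0.208% of 14911 genes. With a stricter filter on low counts (a mean of at least 5 CPM, and no library under 1 CPM on one of the days) edgeR called 1 member, Ppbp, and 1.79% of 8142 genes. DESeq2 called Ppbp and Cxcl3, and 7.23% of 14408 genes, while limma voom called the same members and 5.37% of all genes tested. The median log2 fold change of the 6 members was -1.07, beside -0.17 over all genes tested.

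**Figure D1:**
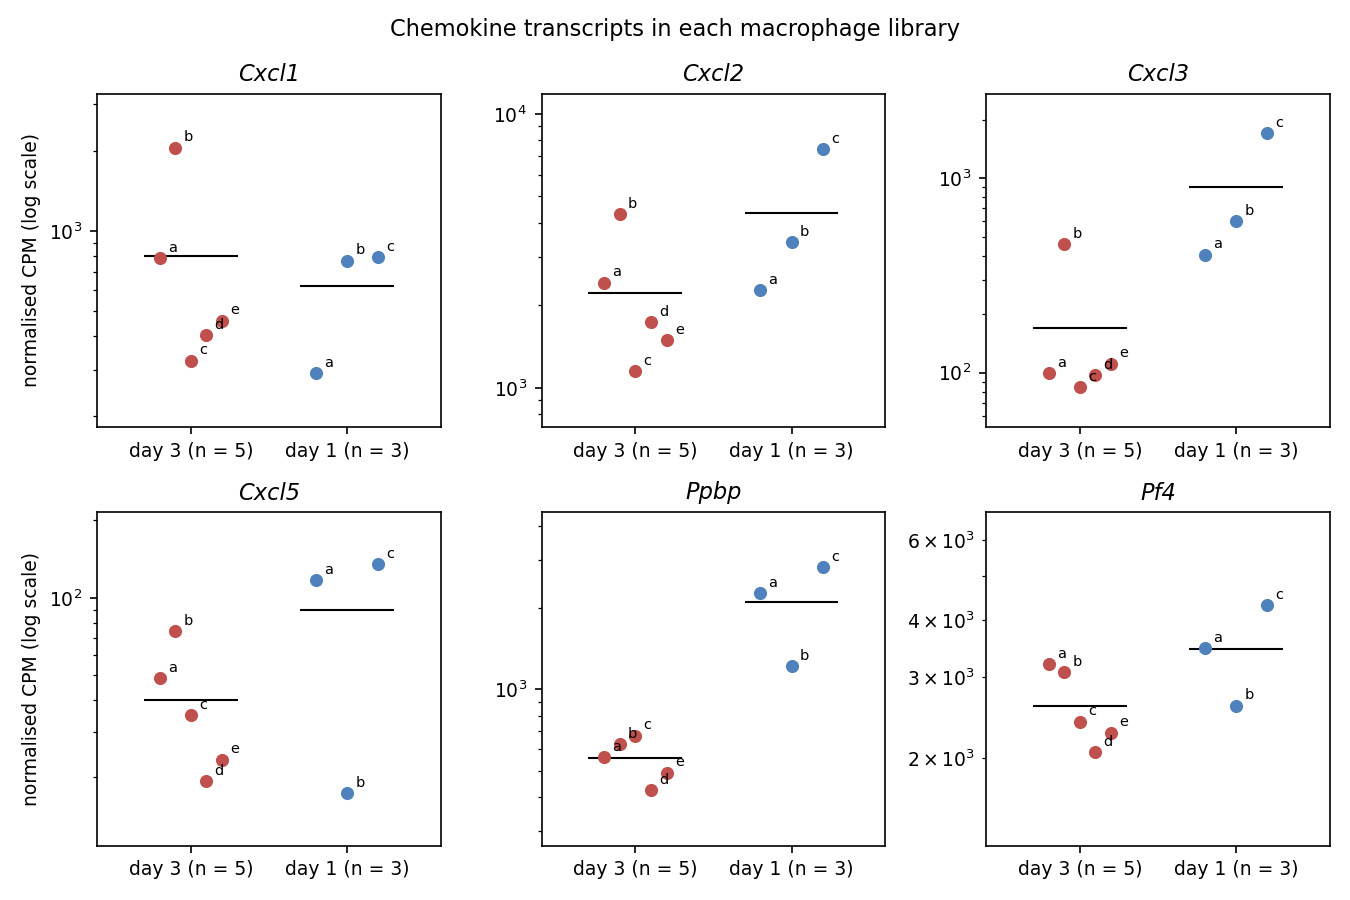
Normalised CPM (log scale, a separate axis for each gene) of the 6 chemokines in the 5 day 3 libraries and the 3 day 1 libraries; points are libraries with their letters and lines are group means. Ppbp is the only gene of the 6 whose day ranges are apart, as for 14.1% of all genes tested. It is at 424 to 674 CPM in day 3 libraries and 1218 to 2813 CPM in day 1 libraries.

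Of the 6 members only Ppbp had day ranges that did not overlap. Among all genes tested this held for 14.1%, so that count carries no result on its own. Ppbp encodes pro-platelet basic protein, the precursor that is trimmed to the neutrophil attractant CXCL7. Ppbp (ENSMUSG00000029372, chr5:90916377-90917922 in GRCm39) was at 561, 627, 674, 424 and 493 CPM in day 3 libraries a to e, against 2256, 1218 and 2813 CPM in day 1 libraries a to c. Every day 3 library was below every day 1 library, and the day 3 values lay close together. The means were 556 ± 100.5 CPM at day 3 and 2096 ± 809 CPM at day 1 (SD, n = 5 and 3). The log2 fold change was -1.91 ± 0.26 (SE), or 0.265 times the day 1 level. The edgeR adjusted p was 0.0579, just above the threshold. It was 0.0204 by edgeR with the stricter filter, 1.26e-08 by DESeq2 and 0.0112 by limma voom. Leaving out single libraries gave log2 fold changes between -2.18 and -1.64. In these 8 fits the edgeR adjusted p ran from 0.0114 (day 1 b out) to 0.141 (day 3 d out), and the only other one under the threshold was 0.0479 (day 3 b out).

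Cxcl3, a close relative of Cxcl1 and Cxcl2 that also signals through Cxcr2, had the largest fold change and a wide spread. Its levels were 99.8, 459, 84.0, 97.2 and 111 CPM in day 3 libraries a to e, against 406, 605 and 1707 CPM in day 1 libraries a to c (ENSMUSG00000029379, chr5:90933962-90937459). Day 3 libraries a, c, d and e were below all day 1 libraries, whereas day 3 b fell inside the day 1 range. The means were 170 ± 162 CPM at day 3 and 906 ± 701 CPM at day 1, with a log2 fold change of -2.41 ± 0.65 and an edgeR adjusted p of 0.095. DESeq2 and limma voom gave adjusted p-values of 0.0312 and 0.0339. Single libraries moved the value of Cxcl3 more than that of Ppbp. Without day 3 b the log2 fold change was -3.21 ± 0.45 (edgeR adjusted p = 0.0479), and without day 1 c it was -1.59 (edgeR adjusted p = 0.258).

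Cxcl2, encoding a neutrophil attractant made by activated macrophages and by neutrophils themselves, was abundant at both times. Its levels were 2424, 4309, 1150, 1736 and 1498 CPM in day 3 libraries a to e, against 2281, 3395 and 7422 CPM in day 1 libraries a to c (ENSMUSG00000058427, chr5:91051730-91053797). The day ranges overlapped, because day 3 a and b exceeded day 1 a, and day 1 c was far above the rest. The means were 2223 ± 1256 CPM at day 3 and 4366 ± 2705 CPM at day 1, a log2 difference of -0.97 ± 0.47 that did not pass (edgeR adjusted p = 0.362). With single libraries left out it ran from -1.36 (day 3 b out) to -0.36 (day 1 c out), and no such fit passed.

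Cxcl1, the mouse chemokine also called KC, was the only member whose mean was higher at day 3, and that order rested on 1 library. It was at 787, 2057, 324, 404 and 458 CPM in day 3 libraries a to e, against 291, 772 and 796 CPM in day 1 libraries a to c (ENSMUSG00000029380, chr5:91039100-91040974). Day 3 b was the highest of all 8 libraries and day 1 a the lowest, and the day ranges overlapped. The means were 806 ± 721 CPM at day 3 and 620 ± 285 CPM at day 1, and their log2 fold change was 0.38 ± 0.62 (edgeR adjusted p = 0.838). Without day 3 b the log2 fold change was -0.33, and without both day 3 b and day 1 a it was -0.67, so no direction can be given for Cxcl1.

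Cxcl5, known in mice as LIX and made in skin mainly by epithelial and stromal cells, had the lowest counts of the cluster. Its levels were 48.6, 74.0, 34.8, 19.4 and 23.4 CPM in day 3 libraries a to e, against 117, 17.3 and 135 CPM in day 1 libraries a to c (ENSMUSG00000029371, chr5:90907219-90909483). Day 1 a and c lay above all day 3 libraries, and day 1 b lay below them all. The means were 40.1 ± 22.1 CPM at day 3 and 89.8 ± 63.4 CPM at day 1, and their log2 fold change was -1.17 ± 0.61 (edgeR adjusted p = 0.403). With single libraries left out it ran from -1.65 (day 1 b out) to -0.74 (day 1 c out), and no such fit passed.

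Pf4 varied least between libraries. It was at 3209, 3081, 2402, 2055 and 2272 CPM in day 3 libraries a to e, against 3472, 2603 and 4318 CPM in day 1 libraries a to c (ENSMUSG00000029373, chr5:90920294-90921242). Day 1 b lay within the day 3 range and day 1 a and c above it. The means were 2604 ± 512 CPM at day 3 and 3465 ± 858 CPM at day 1, and their log2 fold change was -0.41 ± 0.22 (edgeR adjusted p = 0.409).

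**Figure D2:**
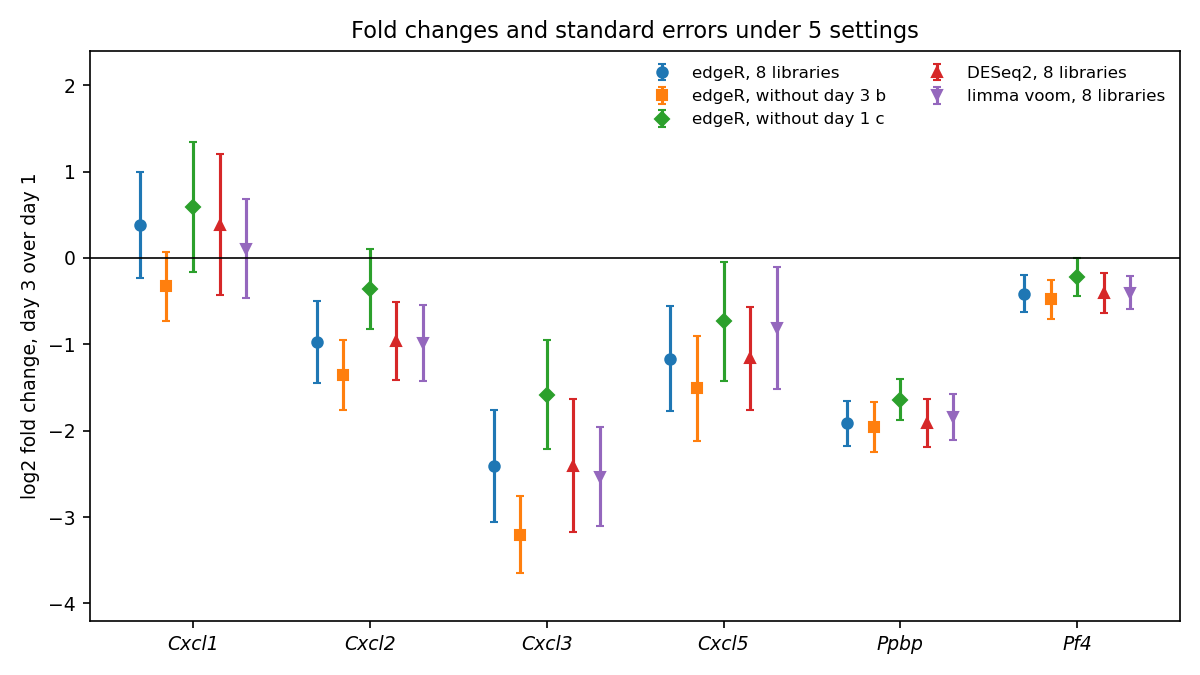
Log2 fold change (day 3 over day 1, vertical axis) with its standard error for each chemokine under 5 settings: edgeR on 8 libraries, edgeR without day 3 b, edgeR without day 1 c, DESeq2 and limma voom. For edgeR the standard error is worked back from the test statistic. Ppbp stays between -1.96 and -1.64 in these settings, while Cxcl1 changes sign without day 3 b (-0.33).

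Because normalisation between libraries cancels within a library, ratios between members were also described. The day ranges did not overlap in 4 of the 15 pairs, against 19.8% of 7525260 pairs among 3880 abundant genes (mean log2 CPM of at least 5 and no count of 0), so that count is near the background and carries no result on its own. The Ppbp to Pf4 ratio, for neighbours 2371 bases apart, was 0.175 to 0.281 in day 3 libraries and 0.468 to 0.651 in day 1 libraries. The Cxcl1 to Cxcl3 ratio was 3.86 to 7.89 in day 3 libraries and 0.467 to 1.28 in day 1 libraries. The Cxcl2 to Cxcl3 ratio was 9.40 to 24.3 in day 3 libraries against 4.35 to 5.62 in day 1 libraries, and the Cxcl1 to Cxcl2 ratio was 0.233 to 0.477 in day 3 libraries against 0.107 to 0.227 in day 1 libraries. Among the other pairs, day 3 b differed from the rest of its group in the Cxcl3 to Ppbp ratio, at 0.731 against 0.125 to 0.229 in the other day 3 libraries and 0.180 to 0.607 in day 1 libraries. The 3 related genes Cxcl1, Cxcl2 and Cxcl3 are alike in sequence, and the number of reads that match more than 1 of them is not known here, so their separate levels carry that uncertainty.

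**Figure D3:**
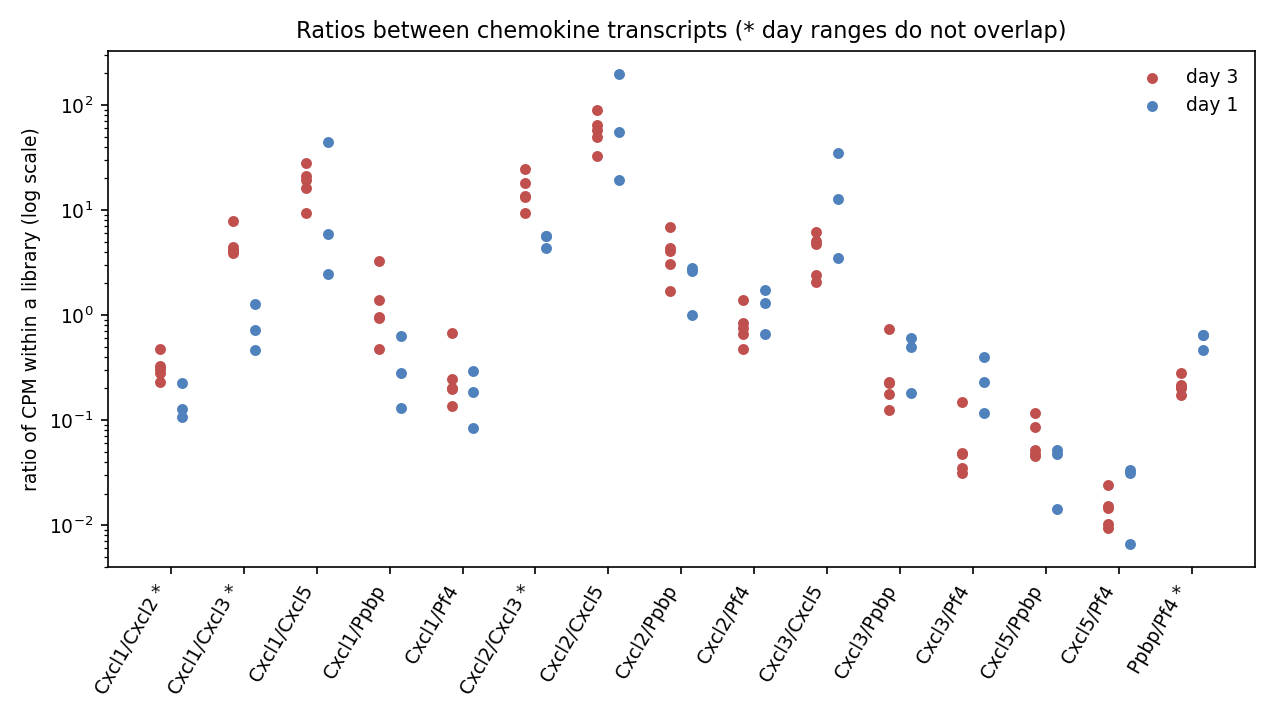
Ratio of CPM between each pair of chemokines within a library (log scale); points are the 5 day 3 and 3 day 1 libraries, and an asterisk marks the 4 pairs whose day ranges do not overlap. The Ppbp to Pf4 ratio is 0.175 to 0.281 in day 3 libraries and 0.468 to 0.651 in day 1 libraries.

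Levels between members were compared as CPM per kilobase of annotated exon. Pf4 led at both times, with 3611 ± 709 CPM per kb at day 3 and 4805 ± 1189 CPM per kb at day 1. Next came Cxcl2, at 1075 ± 607 CPM per kb at day 3 and 2111 ± 1308 CPM per kb at day 1, then Ppbp, at 513 ± 92.8 CPM per kb at day 3 and 1935 ± 747 CPM per kb at day 1. Cxcl1 had 430 ± 385 CPM per kb at day 3 and 331 ± 152 CPM per kb at day 1, Cxcl3 had 48.7 ± 46.2 CPM per kb at day 3 and 259 ± 200.3 CPM per kb at day 1, and Cxcl5 was lowest, at 21.5 ± 11.9 CPM per kb at day 3 and 48.2 ± 34.0 CPM per kb at day 1. Pf4 exceeded Cxcl2 in all 8 libraries without overlap of their ranges within a day. Neighbours whose ranges overlapped were Cxcl2 and Ppbp at both times, Ppbp and Cxcl1 and also Cxcl3 and Cxcl5 at day 3, and Cxcl1 and Cxcl3 at day 1. The exon lengths of Cxcl1, Cxcl2 and Cxcl3 equal their whole gene spans, since the annotation holds a record that retains every intron. With such records left out, an alternative added after the data were seen, Cxcl1 stood at 846 ± 757 CPM per kb at day 3, above Ppbp. Cxcl3 then stood at 891 ± 690 CPM per kb at day 1, above Cxcl1 at 650.2 ± 299 CPM per kb. The ranges of Pf4 and Cxcl2 then overlapped at both times, with Cxcl2 at 1811 ± 1023 CPM per kb at day 3 and 3555 ± 2202 CPM per kb at day 1.

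On the per-kilobase scale with full exon lengths, Pf4 made up 52.1% to 70.5% of the 6 genes' summed level in day 3 libraries and 45.5% to 57.8% in day 1 libraries. Ppbp made up 7.06% to 13.2% in day 3 libraries and 16.1% to 25.0% in day 1 libraries. These ranges did not overlap, nor did those with retained introns left out (5.25% to 11.7% in day 3 libraries and 12.6% to 21.8% in day 1 libraries), whereas shares of the plain CPM sum did, at 5.91% to 14.4% in day 3 libraries and 14.2% to 25.6% in day 1 libraries. The 6 genes together took 0.470% to 1.00% of all counts in day 3 libraries and 0.843% to 1.78% in day 1 libraries.

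**Figure D4:**
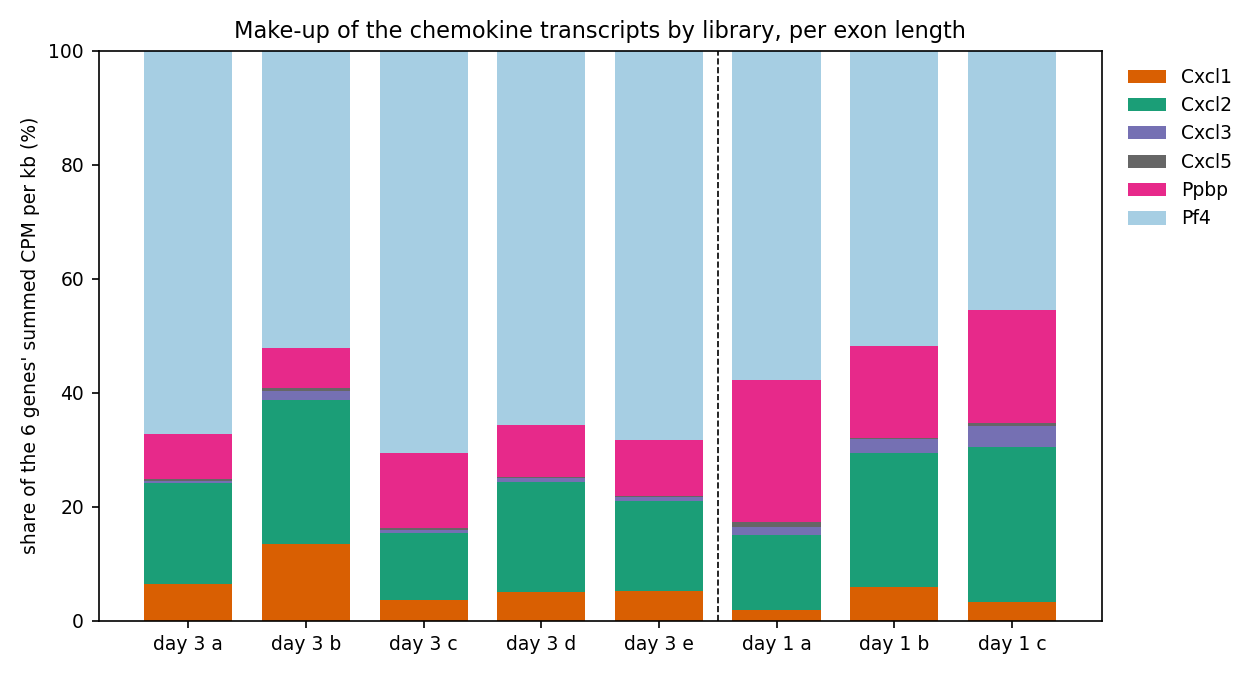
Share (%) of each chemokine in the 6 genes' summed CPM per kilobase of exon, in 5 day 3 libraries and, right of the dashed line, 3 day 1 libraries. The Ppbp band is 7.06% to 13.2% in day 3 libraries and 16.1% to 25.0% in day 1 libraries.

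Markers of other cells that bead selection could carry over were read beside these values. The 15 neutrophil markers summed to 727, 4107, 476, 503.5 and 567 CPM in day 3 libraries a to e, against 900.5, 2520 and 4359 CPM in day 1 libraries a to c. Of the 15, 9 were above the floor in every library, and the most abundant were S100a8 and S100a9. These were at 1773 and 1062 CPM in day 3 b, so most of the sum there is a reading of these genes. The defining marker Ly6g was at 1.52 and 6.83 CPM in day 3 a and b, and at most 0.03935 CPM in day 3 c to e. It was at 3.725 to 6.81 CPM in day 1 libraries. By the neutrophil marker sum and by the members' summed CPM the day 3 libraries had the same order (b, a, e, d, c). The day 1 libraries did not, since day 1 a, the lowest in neutrophil markers, had 8823 CPM of member transcripts and day 1 b 8610 CPM. Day 3 b was the highest day 3 library in Cxcl1, Cxcl2, Cxcl3 and Cxcl5 but not in Ppbp or Pf4. The part of neutrophil RNA in these members was not tested.

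Ppbp and Pf4 are also platelet genes, so platelet and megakaryocyte markers were read. These 10 markers summed to 1.37, 1.30, 1.95, 0.293 and 0.0762 CPM in day 3 libraries a to e, against 5.06, 1.90 and 1.48 CPM in day 1 libraries a to c. No marker was above the floor in all libraries, and the defining markers Gp9 and Gp5 had 0 counts in every library, which allows at most 0.0722 CPM. Treml1, the most abundant, had 0 counts in the day 3 libraries and averaged 1.27 CPM in the day 1 libraries, and Clec1b averaged 0.529 CPM at day 3 and 0.237 CPM at day 1. In the same libraries Ppbp was at 424 CPM or more and Pf4 at 2055 CPM or more. Platelet marker level and Ppbp both averaged lower at day 3, and the share of platelet RNA in Ppbp was not tested.

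Other marker sums also moved with the day. Macrophage markers, led by Lyz2 and Cd68, summed to 29380 to 36410 CPM in day 3 libraries and 17820 to 20590 CPM in day 1 libraries. Lyz2 carried most of the difference between the days, at 19780 ± 2908 CPM at day 3 and 8167 ± 1609 CPM at day 1. The sum of the other 10 markers overlapped, at 11330 to 13720 CPM in day 3 libraries and 10700 to 11690 CPM in day 1 libraries (a sum added after the data were seen). Taken singly, Lyz2, Adgre1, C1qb and C1qc were higher at day 3 and Fcgr1 lower, without overlap of day ranges. That is 4 higher and 1 lower of 11, against 14.1% of all genes tested in either direction. With overlapping ranges, Csf1r, Mrc1 and Mertk had lower means at day 3, and Cd68, C1qa and Itgam higher ones. Inflammatory monocyte markers, led by Ccr2 and Fn1, summed to 1763 to 2428 CPM in day 3 libraries and 2435 to 3100 CPM in day 1 libraries, also without overlap. Ppbp, Cxcl2, Cxcl3, Cxcl5 and Pf4 also had lower means at day 3, and the part of cell make-up in this was not tested. Mast cell markers, almost wholly Hdc, ran from 85.2 to 367 CPM in day 3 libraries and 166 to 757 CPM in day 1 libraries. Of the 8 only Hdc and Kit were above the floor in every library, Kit averaging 1.79 CPM at day 3 and 5.42 CPM at day 1. Mcpt4 and Tpsb2 had 0 counts in every library, so the sum is a reading of Hdc and not of mast cells. Keratinocyte markers, led by Sfn and Krt14, reached at most 42.8 CPM in day 3 libraries and 7.14 CPM in day 1 libraries. Fibroblast markers, led by Col3a1 and Col1a1, were at 56.0 to 119 CPM in day 3 libraries and 9.49 to 37.7 CPM in day 1 libraries, and endothelial markers, led by Pecam1 and Kdr, at 17.3 to 29.9 CPM in day 3 libraries and 31.1 to 78.0 CPM in day 1 libraries.

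**Figure D5:**
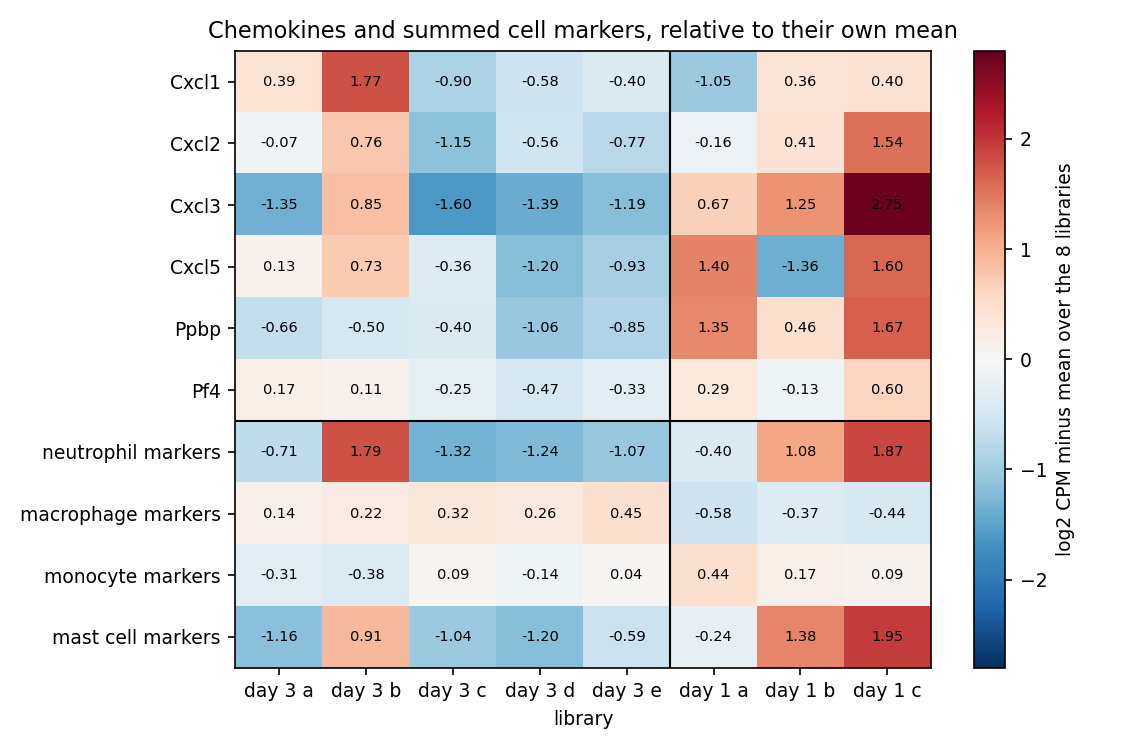
Log2 CPM of each chemokine, and of 4 summed marker lists below the line, minus its own mean over the 8 libraries (colour and printed value); columns are day 3 a to e, then day 1 a to c. Day 3 b is high for Cxcl1 (1.77) and neutrophil markers (1.79), while Ppbp there is at -0.50, within the range of the other day 3 libraries. The mast cell sum is almost wholly Hdc.

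Among the 4 receptor genes of the members, Cxcr2 was the most abundant and the others were sparse. Cxcr2, the shared receptor of the ELR chemokines and a neutrophil gene, was at 24.2, 97.1, 25.9, 20.5 and 17.1 CPM in day 3 libraries a to e, against 40.6, 112 and 116 CPM in day 1 libraries a to c. As for Cxcl1 and Cxcl3, day 3 b was the highest day 3 library. The log2 fold change was -1.28 ± 0.59 (edgeR adjusted p = 0.339). Of the 4 receptor genes 3 were tested and none passed in either direction. Cxcr3 and Cxcr1 averaged 4.86 and 0.138 CPM at day 3 against 2.79 and 1.40 CPM at day 1, and the scavenging receptor Ackr1 had 0 counts in all libraries, which allows at most 0.0722 CPM.

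Of 9 other CXC chemokines 7 were tested, with none called by edgeR and a median log2 fold change of 0.92. That median is the value of Cxcl9 (SE 1.36), which averaged 2.13 CPM at day 3 and 1.12 CPM at day 1. Cxcl11, Cxcl12 and Cxcl13 were sparse too, with standard errors of 1.99, 2.03 and 2.07, so the median gives no direction for the list. DESeq2 and limma voom each called 1 higher and 1 lower, against 7.23% and 5.37% of all genes in either direction. Cxcl16, a transmembrane chemokine and scavenger receptor, was at 497 ± 44.1 CPM at day 3 and 232 ± 95.3 CPM at day 1 (1.10 ± 0.25), and Cxcl10, an interferon-induced ligand of Cxcr3, at 23.6 ± 11.2 CPM at day 3 and 74.1 ± 19.2 CPM at day 1 (-1.65 ± 0.40). Both had an edgeR adjusted p of 0.0829 and day ranges without overlap. Cxcl14, an epithelial and stromal chemokine, was at 11.2 ± 7.06 CPM at day 3 and 3.56 ± 1.42 CPM at day 1.

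Upstream inducers were described from a list of 20 cytokine, receptor and NF-κB genes, of which 19 were tested and none was called by edgeR. The median log2 fold change was -0.47, and at an unadjusted p under 0.05 edgeR counted 5 lower and 0 higher, beside 10.5% and 5.16% of all genes tested. DESeq2 called 3 lower and limma voom 2, against 7.23% and 5.37% of all genes in either direction. Nfkbia, the NF-κB inhibitor and target gene, had a log2 fold change of -0.27 ± 0.40, Il1rn, the IL-1 receptor antagonist, -0.92 ± 0.34, and Il1b -0.64 ± 0.49. Il1b was at 691, 1889, 569, 543 and 566 CPM in day 3 libraries a to e, against 702, 1123 and 2168 CPM in day 1 libraries a to c, so day 3 b and day 1 c were the high libraries of their days, as for Cxcl2. The receptor genes Tnfrsf1a, Il17ra and Tlr4, picked out after their values were seen, are the 3 called by DESeq2. Their day ranges did not overlap, as for 8.76% of all genes in that direction, with log2 fold changes of -1.41 ± 0.27, -1.44 ± 0.38 and -0.66 ± 0.17 and edgeR adjusted p-values of 0.0741, 0.0915 and 0.0889.

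Factors that bind chemokine messenger RNAs numbered 9, all tested, with none called by edgeR and a median log2 fold change of -0.17. DESeq2 called 1 lower, against 7.23% of all genes in either direction. Zfp36, which encodes the decay factor tristetraprolin, was at 1460 ± 500.3 CPM at day 3 and 2656 ± 1761 CPM at day 1 (-0.86 ± 0.39). Its relative Zfp36l1 stood at -0.64 ± 0.41, and Elavl1, which encodes the stabilising protein HuR, at -0.07 ± 0.22.

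Among 14 other neutrophil attractants and growth factors, all tested, none was called by edgeR, and the median was -0.34. Here DESeq2 and limma voom each called 1 higher and 1 lower, against 7.23% and 5.37% of all genes in either direction. Ccl6 had a log2 fold change of -0.36 ± 0.23, Anxa1, whose product restrains neutrophil influx, 0.88 ± 0.21 (edgeR adjusted p = 0.0829, no overlap), and Ccl4 -0.41 ± 0.34. Anxa1 is the gene the other tools called higher. The one they called lower is C5ar1, the receptor for the attractant C5a, named after its values were seen, at 780 ± 88.7 CPM at day 3 and 1208 ± 222 CPM at day 1 (-0.63 ± 0.17, edgeR adjusted p = 0.0907). Of 8 proteases known to trim ELR chemokines 7 were tested, none was called by edgeR, and the median was 0.13. Each other tool called 1 higher, against 7.23% (DESeq2) and 5.37% (limma voom) of all genes in either direction. Mmp12, macrophage elastase, was at 651 ± 195 CPM at day 3 and 91.3 ± 87.7 CPM at day 1 (2.83 ± 0.58, edgeR adjusted p = 0.0829), with no overlap. Mmp8 and Mmp13 were at -0.02 ± 0.25 and 0.56 ± 0.30.

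Genes whose profile over the 8 libraries lay nearest each member were found as the smallest root mean square difference of centred log2 CPM among 6974 genes, as a description that says nothing of shared control. Ppbp was nearest to Tap1 (0.201), Ikbke (0.273) and Timp1 (0.288), while its neighbour Pf4 ranked 732nd. Cxcl3 was nearest to Hdc (0.535), Grina and Smox, and Cxcl2 to Tnfaip6 (0.249), Il1b (0.272) and Ehd1 (0.281). Cxcl1 was nearest to Arg2 (0.353), Ccl3 (0.355) and Zfp326, Cxcl5 to Akirin2 (0.456), Atad2b and Zdhhc5, and Pf4, whose profile was nearly flat, to Prrc2c (0.114), Riok3 and Srsf6. No member was among the 3 nearest genes of another, which is a narrow cut of 6974 genes. The nearest other member ranked 68th for Cxcl3 (Cxcl2), 140th for Cxcl5 (Pf4) and 144th for Cxcl1 (Cxcl2). It ranked 320th for Cxcl2 (Pf4), 732nd for Ppbp (Pf4) and 3568th for Pf4 (Cxcl2). Pf4 lay at 0.599, 0.793 and 0.735 from Cxcl2, Cxcl5 and Ppbp. The root mean squares of those genes' own centred profiles were 0.819, 1.08 and 0.968, against 0.334 for Pf4. By this measure a nearly flat profile lies fairly near many others, so these ranks of Pf4 show little likeness of profile.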

How the data were processed

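The authors deposited raw counts per gene, 1 column per library with no normalisation, and an annotated exon length per gene. Counting was by featureCounts 1.6.0 with Ensembl release 106 on GRCm39, per the file headers, and its command sets no strand, read-pair or multi-mapping option. The submitters' processing notes also name Trimmomatic and DESeq2; an aligner was not given in the sources used here. Of counts from 2 to 20, 73.0% to 86.0% were even, depending on the library, and pairs may have been counted as 2 reads. Symbols were found for 52081 (94.0%) of 55414 genes. All count columns matched a sample title by name, but the alignments in the header's command carry partly different letters, so which pool a letter stands for rests on the column names.

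Genes were kept with filterByExpr (minimum count 10), scaled with TMM and tested with the quasi-likelihood F test of edgeR 4.0.16 (R 4.3.3), two-sided, with Benjamini-Hochberg adjustment over 15371 genes at 0.05; fold changes are day 3 over day 1. DESeq2 1.42.0, limma 3.58.1 (voom), RLE scaling, library totals, other filters and thresholds, halved counts, single libraries left out, and a replicate block were the alternatives. The edgeR test prints no standard error, so the one given is the absolute log2 fold change over the square root of F. Figures used Python 3.11.15 and matplotlib 3.10.9. The fit was tested on simulated counts. Letters of the libraries were treated as names: deviations of same-letter libraries correlated at 0.0857, 0.0267 and 0.000606. The named genes are all 6 members, called genes or else the 3 most abundant of each pathway list, the 2 most abundant of each marker list, and the 3 nearest profiles of each member. Adgre1, Gp9 and Gp5 are named as defining markers. Csf1r, Mrc1, Fcgr1, Mertk, C1qa, C1qb, C1qc, Itgam, Mcpt4, Tpsb2, Ackr1, Tnfrsf1a, Il17ra, Tlr4, C5ar1, Ly6g, Cxcl9, Cxcl11, Cxcl12 and Cxcl13 were named after their values were seen. Members and lists were chosen with earlier results of these data known.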

Additional observations from a re-analysis of the deposited data

Results flagged for a closer look

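In 5 of the 15 day 3 groups of values examined, day 3 b lay far from the other 4 day 3 libraries, as measured by its gap to the nearest of them over the whole range of the group (a gap above 0.71 is marked). Chance marks about 1 group in 20, and these groups share the same libraries. The Cxcl1 level of day 3 b was 2057 CPM and its Cxcl3 level 458.6 CPM. Its neutrophil markers summed to 4107 CPM, its mast cell markers, almost wholly Hdc, to 366.8 CPM and its keratinocyte markers to 42.82 CPM. Groups of 3, as at day 1, were not examined in this way.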

How the results depend on the processing

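Of the 6 fold changes, those of Cxcl2, Cxcl3, Cxcl5, Ppbp and Pf4 kept their direction in all 19 alternatives. The threshold of 0.1 is counted among these and reuses the main fit, so it could not move a fold change. With single libraries left out, Cxcl1 lay between -0.33 (day 3 b out) and 0.59 (day 1 c out), and turned to -0.67 without day 1 a and day 3 b together. Over all genes edgeR called 2, against 1041 with DESeq2, 825 with limma voom, 1347 with no filter on low counts, 146 with the stricter filter, 735 at an adjusted p under 0.1, 46 with halved counts and 25 without day 1 a and day 3 b. Leaving out single libraries gave 0 to 59 genes. RLE scaling and library totals gave 2. Of the members edgeR called 0, against 2 with DESeq2, 2 with limma voom, 4 with no filter, 1 with the stricter filter, 2 at an adjusted p under 0.1, 1 with halved counts, 1 without day 1 a and day 3 b, and 0 to 2 without single libraries. The letters did not pair the libraries by the correlation of their deviations. With libraries a to c alone, edgeR called 0 of 14483 genes without and 0 with the replicate block (1660 and 1343 at an unadjusted p under 0.05). It called 0 of the 6 members either way (2 and 2 at an unadjusted p under 0.05). The fits that left out day 1 a, day 3 a, c, d or e called 0 genes by edgeR, with 2877, 2345, 1976, 2000 and 2060 at an unadjusted p under 0.05. The number of genes called thus moved with the tool and the filter at the same pools. The lowest count of a member in any library was 1038. Levels per kilobase of Cxcl1, Cxcl2, Cxcl3 and Cxcl5 depend on whether retained introns count as exon.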
